A study of Drosophila melanogaster with 3 samples.

Results

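fuss and Snoo are the Drosophila members of the Ski and Sno family, nuclear proteins that carry no enzymatic activity of their own and act as transcriptional co-regulators. In vertebrates Ski and Sno proteins bind Smads, the transcription factors that carry signals of the TGF-beta family into the nucleus, and limit or redirect their activity. Snoo is the fly relative of Ski and SnoN and binds the common Smad Medea. fuss is the fly relative of the vertebrate Skor (Corl) proteins and is known for its expression in differentiated neurons of the central nervous system. Hey, the factor whose binding was assayed, is a basic helix-loop-helix protein with an Orange domain, related to the Hairy and Enhancer of split repressors and known as a target of Notch in neurons.

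The sites of Hey on the genome were mapped by ChIP-seq in 3 biological replicates of male and female whole embryos aged 6 to 24 h. The line was transgenic and stably expressed Hey carrying a C-terminal GFP. These 3 replicates form the only group, Hey-GFP embryo, so there was no untreated or mutant embryo to set them against. Whole embryos hold all tissues, so a strong region in few cells and a weak region in many cannot be told apart. The labels conflict on the libraries: their free text names an input control, while the antibody, the title of the assay and a control listed apart are those of a transcription factor ChIP. The effect of this conflict on the regions was not tested.

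The 2 genes were taken from the 18164 genes of the annotation, and their regions were chosen by position and by measured values. A region belonged to a gene when its summit lay inside the gene or within 10 kb of either end. Of the 3319 regions of the authors' list filtered by irreproducible discovery rate (IDR), a comparison of replicates, 12 met this rule, 3 at fuss and 9 at Snoo. Regions were ranked within each list by the authors' signal value, whose scale is not given in the sources used here. Since both genes were picked for having strong regions, the counts and ranks below are a description, and no test was made on them. Of all genes, 43.3% had at least 1 IDR summit by the same rule, 8.55% had 3 or more as fuss did, and 0.209% had 9 or more as Snoo did. Gene lengths were not matched, and the Snoo window spans 113010 bp. Of the 9 Snoo regions, 7 lay inside the gene and the rest at starts of another gene, pes.

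The strongest fuss region held 1 palindromic E-box, CACGTG, the sequence to which Hey-class proteins bind as dimers. The strongest Snoo region held none. Both windows, of 201 bases centred on the summit (dm6, plus strand), are shown because they are the strongest regions at the 2 genes and differ in this. Capitals mark the E-box in the fuss window, chr4:982984-983184, and a match to GTTCGANTC, described further on, in the Snoo window, chr2L:7926585-7926785.
fuss −4.6 kb: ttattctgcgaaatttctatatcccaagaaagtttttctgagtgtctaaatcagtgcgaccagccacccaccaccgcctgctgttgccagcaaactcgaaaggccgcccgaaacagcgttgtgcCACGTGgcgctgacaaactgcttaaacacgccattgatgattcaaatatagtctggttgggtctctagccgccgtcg
Snoo +57.5 kb: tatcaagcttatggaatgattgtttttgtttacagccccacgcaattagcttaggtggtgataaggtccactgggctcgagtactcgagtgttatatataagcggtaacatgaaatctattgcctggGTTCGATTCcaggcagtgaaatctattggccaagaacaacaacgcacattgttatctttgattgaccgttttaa

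fuss (FBgn0039932) lies on the minus strand at chr4:962341-978489, with 3 transcripts that start at 978489, 976035 and 969374. All 3 of its IDR regions lay upstream of the gene, in the intergenic stretch between fuss and the divergently transcribed Pax6 gene toy. None lay inside the gene. Distances are given here from the most upstream start, negative where the summit lies upstream.

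The region at −4.6 kb (chr4:982657-983342, summit 983084) had a signal of 1290 and ranked 14 of the 3319 IDR regions, within the top 0.42%. In the replicates it ranked 99, 9 and 3 of 30000, with signals of 250.13, 557 and 497 on each list's own scale. It stood highest in replicates 2 and 3 and lower, though within the top 0.33%, in replicate 1. Its width of 686 bp was the widest of the 12 regions, and its nearest annotated start was that of fuss, 4595 bp away. The summits of the 3 replicates fell 12, 3 and −33 bp from the pooled summit.

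The region at −6.5 kb (chr4:984880-985121, summit 984985) had a signal of 231 and rank 1007. Its ranks in the 3 replicates were 1478, 950 and 968, the most even among the fuss regions. The nearest annotated start was that of toy, 4740 bp away, so this region sits between both genes and its nearest start is not that of fuss. toy encodes a Pax6 protein that acts upstream of ey in the eye.

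The region at −3.3 kb (chr4:981754-981854, summit 981761) had a signal of 118 and rank 3166, near the end of the list, whose lowest signal was 115.13. It ranked 5806, 4802 and 1891 in replicates 1, 2 and 3. Its summit was present in all 3 lists, but only in replicate 3 did it stand among the 3319 highest regions. Outside the IDR list, the strongest pooled region of the fuss window had a signal of 52.5 and rank 10276, so a wide gap separated the weakest fuss IDR region from the next. The nearest IDR region beyond the window, with a summit 10151 bp from the gene and 1085 bp from the start of toy, had a signal of 177 and rank 1594.

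Snoo (FBgn0085450) lies on the minus strand at chr2L:7891187-7984196 and spans 93010 bp, with 4 transcripts and starts at 7984196, 7977963 and 7977065. Of its 9 IDR regions, 7 lay inside the gene. All 4 transcripts share an intron of 78.4 kb, chr2L:7896755-7975188, and 6 of the regions lay in it. Their summits fell within a stretch of 15.3 kb, which is 19.5% of that intron. The ends of this stretch are the outermost of the 6 summits, so its length is a description of them.

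The region at +57.5 kb (chr2L:7926471-7926995, summit 7926685) had a signal of 957 and ranked 31 of the IDR list, within the top 0.93%. It ranked 30, 62 and 34 in replicates 1, 2 and 3, with signals of 393, 308 and 269 on each list's own scale. Unlike the strongest fuss region it stood at a similar height in each list. It lies deep in the intron. The nearest annotated start was 35981 bp away and belonged to Spn28Db, which encodes a serpin.

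The other 5 regions of the stretch were far weaker. Next in signal was +47.6 kb (chr2L:7936439-7936738), with 200 and rank 1303, which ranked 2729, 869 and 1876 in the replicates. The region at +58.6 kb (chr2L:7925471-7925621) had a signal of 181 and rank 1527, and ranked 2373, 2345 and 1300. Both stood among the 3319 highest regions of every replicate. That at +43.3 kb (chr2L:7940784-7940964) had a signal of 168 and rank 1733, and ranked 4031, 1390 and 2195, so that replicate 1 alone left it outside the 3319 highest. At +50.8 kb (chr2L:7933202-7933605) the signal was 161 and the rank 1875, with replicate ranks of 4105, 1782 and 3978, and only replicate 2 held it among the highest. The region at +53.3 kb (chr2L:7930849-7930983) had a signal of 145 and rank 2269. It ranked 3280 and 1453 in replicates 1 and 2, and the nearest summit of replicate 3, of rank 3197, lay 115 bp away, just past the 100 bp taken as a match.

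The remaining 3 Snoo regions lay at annotated starts. The one at +0.1 kb (chr2L:7983938-7984341, summit 7984140) fell 56 bp from the most upstream Snoo start, in the 5′ UTR of Snoo and in that of CG7231, which is transcribed the other way. It was the weakest at the gene, with a signal of 122 and rank 3036. Its ranks were 1902, 8100 and 6060, high in replicate 1 and low in both others. The regions at −9.9 kb (chr2L:7993869-7994272) and −9.1 kb (chr2L:7993084-7993487) lay 113 and 70 bp from starts of pes, a gene of the CD36 scavenger receptor family, and count towards Snoo only by the 10 kb window. Their signals were 158 and 149, with ranks 1956 and 2169. The −9.9 kb region ranked 3252, 3046 and 892 in the replicates. The −9.1 kb region ranked 2595 and 1704 in replicates 1 and 2, while the nearest summit of replicate 3, of rank 5602, lay 126 bp away.

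**Figure D1:**
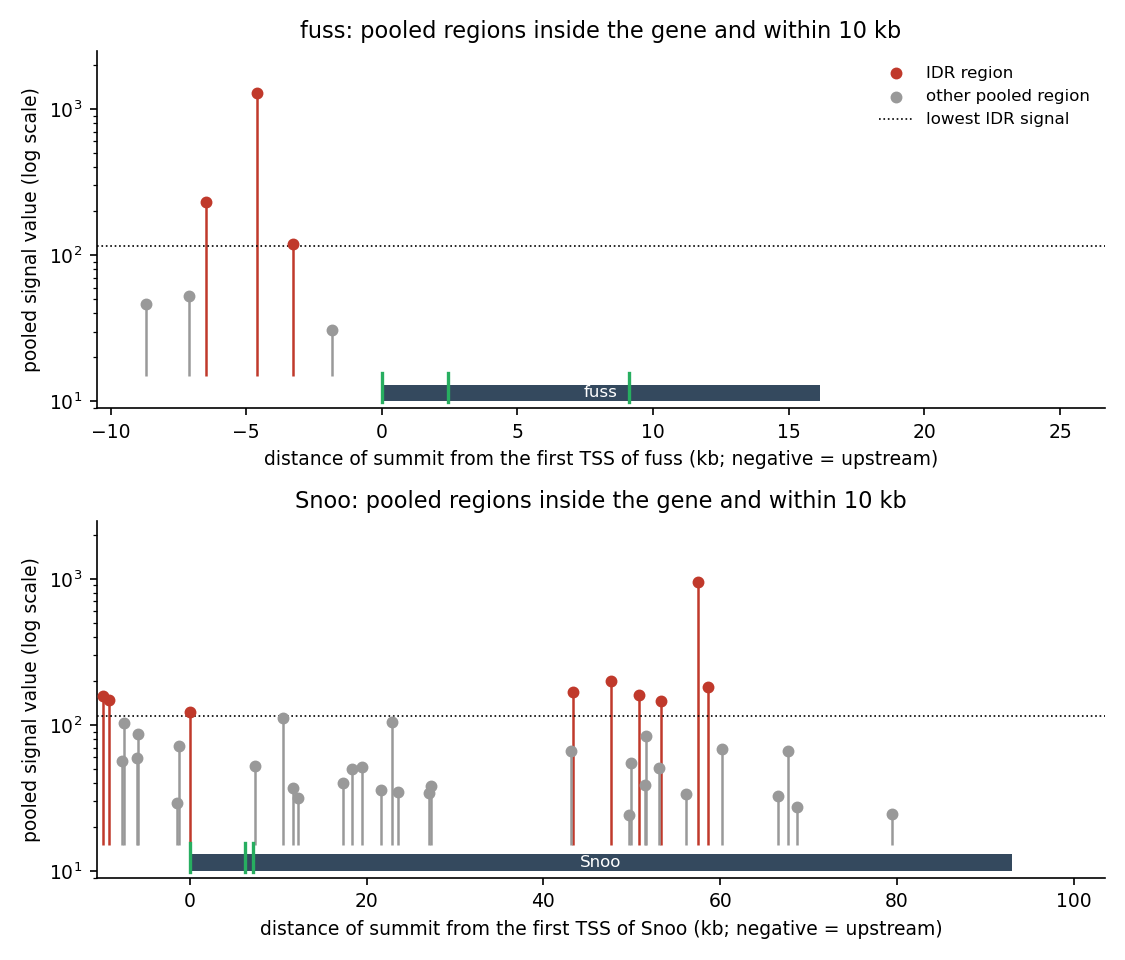
Pooled regions in the windows of fuss (upper panel) and Snoo (lower panel), by distance of the summit from the most upstream start in kb (horizontal axis) and by the pooled signal value of the authors' caller (vertical axis, log scale). Red points are IDR regions, grey points other pooled regions, the dark bar is the gene with its starts in green, and the dotted line is the lowest IDR signal, 115.13; all 3 fuss regions lie upstream, and 6 of the 9 Snoo regions lie between 43.3 and 58.6 kb into the gene.

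In the longer lists, the fuss window held 4, 10 and 13 regions in replicates 1, 2 and 3, and the Snoo window 50, 34 and 30. In these counts the order of the replicates was opposite at the 2 genes. The pooled list is labelled as peaks and background, and the replicate lists have the same length, so many of these regions may be background. At fuss in replicate 2, the 7 regions away from the IDR regions had deposited −log10 q-values of 0.23 to 0.78. The pooled list held 6 regions at fuss and 39 at Snoo. Among the 3319 highest regions, the replicates held 2, 2 and 3 at fuss and 9, 8 and 7 at Snoo. At fuss none of these fell away from the IDR regions. At Snoo, replicate 1 held 2 such regions elsewhere, of ranks 1526 and 1969, and replicate 3 held 2, of ranks 3050 and 3197, the second being the summit 115 bp from that of +53.3 kb. The strongest pooled region of the Snoo window outside the IDR list had a signal of 111 and rank 3522, close below the weakest Snoo IDR region. The nearest IDR region beyond the Snoo window lay 17789 bp from the gene, nearest to Wwox, with a signal of 125.

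Per 10 kb of window, the IDR list held 0.83 regions at fuss and 0.796 at Snoo, against 0.248 over the 6 arms. Both windows were picked for their strong regions, so the higher density is no separate result. The larger number at Snoo went with a longer window.

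Replicate support was counted as a summit within 100 bp among the 3319 highest regions of a replicate. By this rule 6 of the 12 regions were found in all 3 replicates, 3 in 2 and 3 in 1, and none in 0. Over all IDR regions, 1211 (36.5%, 95% Wilson interval 34.9 to 38.1) were found in all 3, 1220 in 2, 807 in 1 and 81 in 0. Of the 6, 2 were fuss regions (−4.6 and −6.5 kb) and 4 were Snoo regions (+57.5, +47.6, +58.6 and −9.9 kb). The region of highest signal at each gene was among them. Of the 7 regions inside Snoo, 3 were found in all 3 replicates. The genes were picked for strong regions, so these shares were not tested against that of all IDR regions. Counted from 2 replicates in place of the IDR list, as regions shared by their 3319 highest, Snoo had 5 regions without replicate 1, 5 without replicate 2 and 6 without replicate 3, against 9 in the IDR list, and fuss had 2 in each case, against 3.

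**Figure D2:**
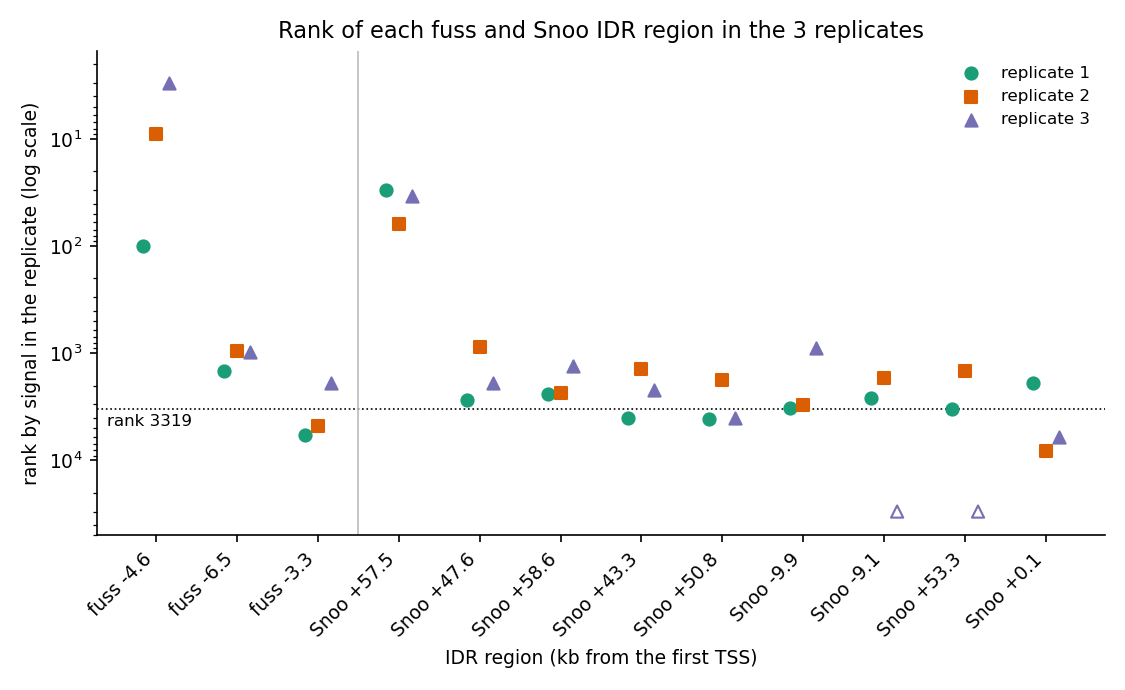
Rank by signal in replicates 1, 2 and 3 (vertical axis, log scale, highest rank at the top) of the 3 fuss and 9 Snoo IDR regions, which are ordered by signal within each gene. The dotted line is rank 3319 and open triangles at the bottom mark a replicate with no summit within 100 bp; fuss −4.6 kb and Snoo +57.5 kb stand apart from the other regions in every replicate.

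Sites were searched on both strands within 100 bp of each summit, and distances run from the summit to the nearest base of the site, positive towards higher coordinates. The E-box CACGTG was present at 3 of the 12 regions (1 at fuss, 2 at Snoo), and at 17.1% of all IDR regions (15.9 to 18.5). The class C site CACGCG, a further sequence that repressors of this class bind, was present at 6 (2 at fuss, 4 at Snoo), and at 15% of all IDR regions (13.9 to 16.3). Either site was present at 8 of 12, all 3 at fuss and 5 of 9 at Snoo, and at 29.9% of all IDR regions (28.4 to 31.5). The Snoo counts include the regions at the starts of pes. Of the 7 regions inside Snoo, 3 had either site and 2 had the class C site. Of 24 flanking windows, equally long and starting 400 bp from the 12 summits on both sides, 1 held either site. The intervals cover counting error over regions only, and the share of the 12 was not tested against them.

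The sites at the fuss regions are shown with 12 bases on either side, 5′ to 3′ on the strand that reads as written, with the site in capitals. They lie at chr4:983096-983125 (plus strand), chr4:984985-985014 (minus strand) and chr4:981652-981681 (plus strand).
fuss −4.6 kb: acagcgttgtgcCACGTGgcgctgacaaac
fuss −6.5 kb: ccaacaatcacgCACGCGtccatagacgac
fuss −3.3 kb: ctttaggagaaaCACGCGtttcatattatt

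At fuss −4.6 kb the E-box (983108-983113) lay 24 bp from the pooled summit and 12, 21 and 57 bp from the summits of replicates 1, 2 and 3. At fuss −6.5 kb the class C site lay 12 bp from the pooled summit and 27, −5 and 11 bp from those of the replicates. The class C site of fuss −3.3 kb lay at −92 bp, near the edge of the window and outside the called region, which starts at 981754. From the summits of replicates 1, 2 and 3 this site lay at −85, −113 and −96 bp. A further CACGTG at chr4:983515-983520, in the flank of the strongest region, had no summit within 100 bp in any list.

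The sites at the Snoo regions, all on the plus strand of chr2L as printed, are shown likewise to set their flanking bases beside those of fuss. They start at 7936617, 7930810, 7930927, 7984073, 7984118, 7994030 and 7993367.
Snoo +47.6 kb: ggacgcggcagaCACGCGcaccaatactgc
Snoo +53.3 kb, left: aaacaattttgcCACGTGtaaagactttcg
Snoo +53.3 kb, right: cgagttatgtaaCACGTGccactagctctt
Snoo +0.1 kb, E-box: tcgcaagcgtcgCACGTGcgagcttttccc
Snoo +0.1 kb, class C: gccactcacacaCACGCGcaccgagagcga
Snoo −9.9 kb: ttgcttccacagCACGCGtctatttcttgc
Snoo −9.1 kb: tcatacatcaatCACGCGaatttcgaacaa

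The region at Snoo +0.1 kb, at the start of the gene, held both kinds of site, the class C site at −5 bp and the E-box at −50 bp from the summit. At Snoo +53.3 kb 2 E-boxes lay on either side of the summit, at −60 and 52 bp. The class C sites at +47.6, −9.9 and −9.1 kb lay at 30, −24 and 93 bp. The −9.9 kb region also held a CACGTG at −154 bp, which is not printed or counted because it lay beyond 100 bp. Of the 9 Snoo regions, those at +57.5, +58.6, +43.3 and +50.8 kb held neither site, and the strongest was one of them. All 4 lay in the stretch of the long intron.

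**Figure D3:**
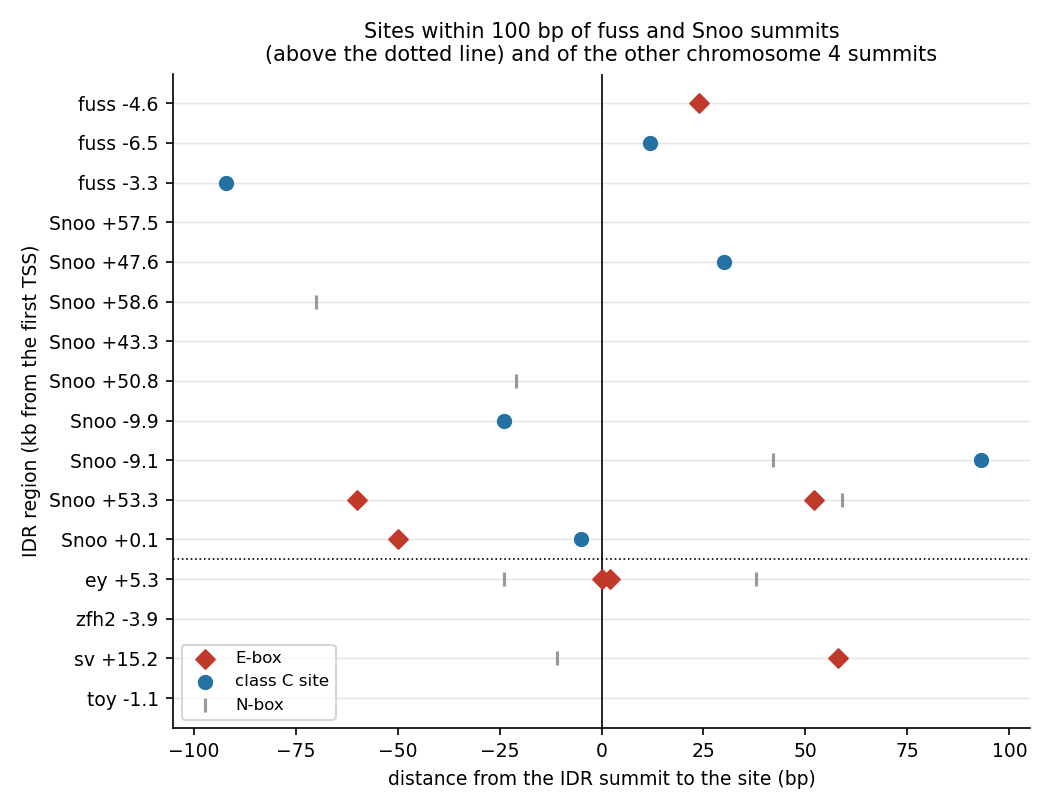
Position of E-boxes (CACGTG, red diamonds), class C sites (CACGCG, blue points) and N-boxes (CACNAG, grey bars) relative to the IDR summit in bp (horizontal axis, positive towards higher coordinates) for the 12 fuss and Snoo regions, above the dotted line, and the other 4 IDR regions of chromosome 4. All 3 fuss summits have an E-box or class C site within 100 bp, though that of −3.3 kb lies outside the called region. Snoo +57.5 kb has none of the 3 motifs.

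Other motifs were counted in the same way. The N-box CACNAG was present at 4 of the 12 regions, all at Snoo, and at 26.8% of all IDR regions. The general E-box CANNTG, which also matches CACGTG, was present at 8 of 12 and at 71.3%. The sequence NGTGGGAA, bound by Su(H), the DNA-binding factor of Notch signalling, was at none of the 12 and at 2.89%. GAGAGAG, bound by the GAGA factor, was at Snoo +43.3 kb alone of the 12 and at 6.36%. TATCGATA, bound by the promoter factor DREF, was at none of the 12 and at 1.39%. In so few regions a count of 0 is no sign of depletion.

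Most sites of both windows carried no IDR summit. In the fuss window 1 of 3 CACGTG and 2 of 4 CACGCG sites had an IDR summit within 100 bp. In the Snoo window 3 of 13 CACGTG and 4 of 24 CACGCG sites did. Over the 6 arms, 3.82% of 16428 CACGTG cores and 2.09% of 26519 CACGCG sites did. Both genes were picked for having strong IDR regions, so a higher share in their windows follows from that choice and is no separate result. With the pooled list, of 30000 regions, the numbers at Snoo were 4 and 9. The shares over the 6 arms were not counted for that list, so those above cannot be set beside it either.

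Snoo +57.5 kb stood in rank between lncRNA:CR44526 (30) and sbb (32), and 2 ranks after the region at the start of Hey itself (29). Of these 3, those at Hey and lncRNA:CR44526 held an E-box and that at sbb did not. fuss −4.6 kb stood between the regions nearest to Ets65A (13), with both kinds of site, and Dnaaf5 (15), with neither. Their signals of 1290 at fuss, 1313 at Ets65A and 1282 at Dnaaf5 were close together.

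The window of Snoo +57.5 kb held no CANNTG of any kind. It did hold GTTCGANTC, a form of the B box, the internal promoter element of tRNA genes that the factor TFIIIC binds, at chr2L:7926712-7926720, 27 bp from the pooled summit and 24, 41 and 66 bp from those of the replicates. The match lies in an inverted repeat, chr2L:7926705-7926726, whose arms of 7 bases read tgcctgg and ccaggca around 8 bases. The nearest of 290 annotated tRNA genes was 53.8 kb away. This motif was looked for after the window had been seen. It was present at 19 IDR regions, or 0.572% (0.367 to 0.892), of which 14 lacked both E-box and class C site and none had a tRNA gene within 100 bp of its summit. Among the 3319 lowest pooled regions away from IDR summits it was present at 0.482% (0.297 to 0.782), and these intervals overlap. Of the 100 highest IDR regions 2 held it, those of Snoo +57.5 kb and Dnaaf5, the rank neighbour of fuss −4.6 kb.

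Chromosome 4, the small and largely heterochromatic chromosome on which fuss lies, held 7 IDR regions, of which the 3 at fuss are part. Its density was 5.19 regions per Mb, against 24.8 per Mb over the 6 arms. It makes up 1.01% of their length and 0.211% of the IDR list. The other 4 regions were nearest to ey, zfh2, sv and toy. ey, like toy, encodes a Pax6 protein, sv encodes the fly Pax2 protein, and zfh2 encodes a zinc finger and homeodomain protein.

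fuss −4.6 kb was the strongest region of the chromosome, with a signal of 1290, against 473 at ey (rank 231), 403 at zfh2 (326), 372 at sv (383) and 177 at toy (1594). It also led the chromosome in each replicate. In replicates 1, 2 and 3 the ey region (chr4:702845-703176, in an intron of ey) ranked 338, 267 and 183, and the zfh2 region (chr4:497773-498035) 486, 325 and 485. The sv region (chr4:1103870-1104205, in an intron of sv) ranked 317 and 218 in replicates 2 and 3 and had no summit within 100 bp in replicate 1. The toy region (chr4:988438-988841) likewise had none in replicate 1, and ranked 4516 and 667 in the others.

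The replicates differed in how much of chromosome 4 they listed. Of 30000 regions, 15, 86 and 153 lay on it in replicates 1, 2 and 3, though regions of low rank among these may be background. Among the 3319 highest, 5, 9 and 13 did. The rank of fuss −4.6 kb moved in the same order, 99, 9 and 3, as did the number of regions in its window. The part of this difference between libraries in the fuss ranks was not tested. At Snoo, on arm 2L, the strongest region ranked 30, 62 and 34 in replicates 1, 2 and 3, which is not the same order.

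**Figure D4:**
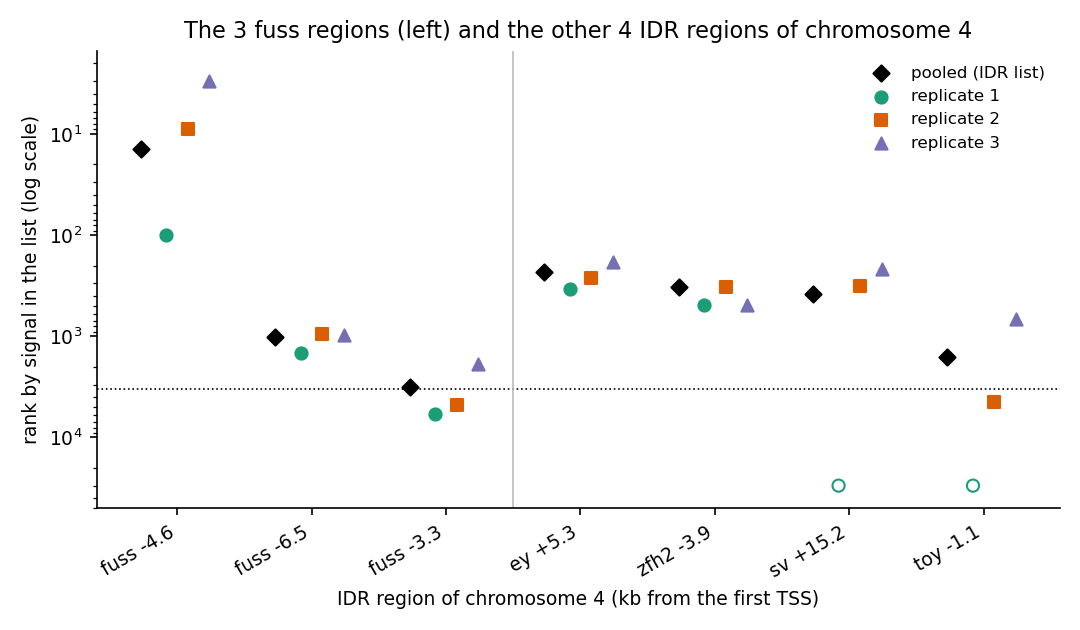
Rank by signal (vertical axis, log scale, highest rank at the top) in the IDR list and in replicates 1, 2 and 3 of the 3 fuss regions (left of the grey line) and the other 4 IDR regions of chromosome 4. Open circles mark replicate 1 where it had no summit within 100 bp, and the dotted line is rank 3319; fuss −4.6 kb ranks above the others in every list.

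Sites on the chromosome are shown for the 3 regions with an E-box, since their flanking bases are alike. The ey and sv sites lie at chr4:702996-703025 and chr4:1104066-1104095, and capitals mark each CACGTG.
fuss −4.6 kb: acagcgttgtgcCACGTGgcgctgacaaac
ey +5.3 kb: gttggCACGTGcCACGTGgcgattgcttgg
sv +15.2 kb: ttttggccgtgcCACGTGgcagttcctaag

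All 3 share GTGCCACGTGGC, of 12 bases, which occurs 25 times on the 6 arms, 7 times with an IDR summit within 100 bp. The 10-base palindrome GCCACGTGGC within it occurs 113 times, and 15 (13.3%, 8.21 to 20.8) had an IDR summit, against 3.82% of all CACGTG cores. Of its 4 occurrences on chromosome 4, 3 were those of fuss, ey and sv, and the other, nearest to MED26, had none. It was present at 0.452% of IDR regions. Both sequences were read from these windows after they had been seen, so the counts describe them and no test was made. The regions of fuss, ey and sv that supplied the sequences are themselves among the 15 and the 7. None of the Snoo sites printed above has this palindrome.

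The Ski and Sno proteins act on the TGF-beta pathway, and 25 other genes of that pathway were examined by the same 10 kb rule. At least 1 IDR region was found at 16 (64%), against 43.3% of all genes, and the median was 1 region a gene, against 0 over all genes. Of the 25, 5 had 3 or more regions, as fuss did, against 8.55% of all genes. Lengths differ between genes and were not matched, so nothing is read from these differences.

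Among ligands, gbb had 2 regions, the stronger with a signal of 950 (rank 33) and nearest to asRNA:CR45928, daw had 1 (307) and myo had 1, which is the ey region. dpp, scw, Actbeta and mav had none. The receptors pair a type I with a type II subunit. Of the type I receptors, sax had 1 region with a signal of 710 and rank 83, babo had 2 (292) and tkv had 1 inside the gene (299). Of the type II receptors, wit had 3 (strongest 412, with an E-box) and put had 1 (149). Of the Smads, Med, the partner of Snoo, had 3 regions (strongest 299) and Mad had 1 inside the gene (245), whereas Smox had none. The inhibitory Smad gene Dad had 3, all inside it, with a highest signal of 265.

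Of the nuclear factors and targets, shn, a zinc finger cofactor of Mad and Medea, had 13 regions, 12 inside the gene, the strongest with a signal of 542 and rank 168. brk, a repressor of Dpp targets, had 1 region (signal 134), with its summit at −1145 bp and an E-box within 100 bp of that summit. Apart from these groups, Smurf, a ubiquitin ligase, had 2 regions (569). Of the extracellular regulators, the secreted BMP-binding proteins sog and cv-2 had 3 (139) and 1 (132), while tsg, tld, tok and dally had none. The strongest region had its nearest start in the gene itself at tkv, Mad, brk, sog and cv-2, and at another gene in the other cases. In signal, fuss −4.6 kb and Snoo +57.5 kb stood above every region of these 25 genes, and both genes were chosen with these signals known.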

How the data were processed

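Hey-GFP ChIP-seq of 3 biological replicates of 1 group was analysed from region lists deposited by the authors (dm6, per the labels). These were 1 list of 30000 regions per replicate, 1 pooled, and the 3319 IDR regions derived from them. The pooled list, also of 30000, is labelled as peaks and background for input to IDR. A region of the longer lists is therefore not by itself a call of Hey binding. No aligner, caller or IDR threshold is named in the labels or files used here, and read depth is unknown. In the deposited narrowPeak format each region has the authors' signal value, a −log10 q-value and a summit offset. The signal value was used to rank each region within its own list. The q-value was not used to rank or filter. Every IDR region holds its maximum, but it varies in the longer lists and was 1.21 for the match to fuss −3.3 kb in replicate 2. Lists differ in median width (360, 416, 440 and 404 bp in replicates 1 to 3 and pooled), which affects overlaps but not summits.

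Genes were those of Ensembl release 115 (BDGP6.54, same coordinates as dm6), without transposons (18164 genes, 23998 starts). Sequence is the RefSeq release 6 genome; no protein or promoter table was used. Coordinates are 1-based. Sites were searched in 201-base windows. Python 3.11.15, numpy 2.4.6, scipy 1.17.1 and matplotlib 3.10.9 were used. Counting was tested on simulated data. Named genes were fuss, Snoo, genes at or nearest to their regions, nearest to chromosome 4 IDR regions, or of the pathway list with a region, plus neighbours in rank. Other pathway genes are named with no value, and MED26, Wwox and the tRNA and palindrome motifs were added after values were seen. The members, lists and motifs were chosen with earlier results of these data known. No comparison between groups exists and no test was made.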

Additional observations from a re-analysis of the deposited data

How the results depend on the processing

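Of 32 alternatives over 4 counts, 22 gave a count within 1.5 times of that reported. Of the 3 fuss regions, 0 remained with summits inside the gene only. Of the 9 Snoo regions, 3 remained when a region went to its nearest start only, and 3 when only the 1659 IDR regions of highest signal were kept. Of the 8 regions with CACGTG or CACGCG, 5 had the site within 50 bp of the summit, and 3 were in that stronger part of the list. With sites counted anywhere in the called region in place of the summit window, the count was 7, and fuss −3.3 kb had none. With all 30000 regions of each replicate, 10 of the 12 had support from all 3, against 6. Those longer lists may include background, so this is a weaker form of support. Leaving out 1 replicate at a time, the other replicates shared 2 to 2 regions at fuss and 5 to 6 at Snoo among their 3319 highest, and of the 12 IDR regions 6 to 8 were found in both, 4 to 6 of them with a site. Without replicate 1 and without replicate 2 the counts were 5 at Snoo and 4 with a site, each a move of over 1.5 times. Among added settings, GTTCGANTC was at 9 IDR regions within 50 bp and 43 within 200 bp, against 19, and the fuss palindrome at 10 and 16, against 15. The causes were not tested. No paired analysis was possible because the series holds 1 group. Read depth is unknown, so weak regions present in 1 replicate and not in another cannot be called absent there.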
